A study of Mus musculus with 15 samples.

Results

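The genes of DNA replication and nucleotide supply were described across a knockdown and a pharmaceutical inhibition of PRMT1, the main type I protein arginine methyltransferase, in CT26 mouse colon carcinoma cells. The 47 genes were given by name, with earlier results of these data known, as 15 origin licensing genes, 27 fork genes and 5 nucleotide supply genes. All 47 were found among the 34432 genes listed, and all 47 passed the filter on low values in both experiments. In the knockdown experiment, 3 shPrmt1 libraries came from CT26 cells that stably carry a DOX-inducible hairpin against Prmt1 (CT26-tet-on-shPrmt1) and had received DOX for 3 days, and 3 shControl libraries came from CT26 cells with a control hairpin. Whether shControl cells also received DOX is not given in the labels, and the sources used here do not say whether more than a single hairpin sequence or clone was profiled. In the inhibitor experiment, CT26 cells labelled as wild type received vehicle, 6 µM MS023 or 6 µM GSK3368715 for 48 h, with 3 libraries of each. MS023 and GSK3368715 both inhibit type I PRMTs, so neither is specific to PRMT1. The libraries are called biological replicates by the submitters, but separate cultures are not described, so the p-values measure the spread between these libraries, which may be technical.

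A replication origin is licensed in G1, when the origin recognition complex (ORC), CDC6 and CDT1 load the MCM2-7 helicase onto DNA. In S phase the helicase is activated by CDC45 and GINS, and polymerases alpha, delta and epsilon copy the strands with the help of the PCNA clamp, its RFC loader and the single-strand binding complex RPA. Ribonucleotide reductase, thymidylate synthase and thymidine kinase provide the deoxynucleotides, and many genes of all 3 roles are known targets of E2F transcription factors.

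Because many of these genes are known E2F targets, their promoter windows (250 bases before to 50 after the start site, RefSeq, GRCm38.p6) were searched for E2F letters. The letters were TTTCCCGC, TTTGGCGC, TTTCGCGC and TTTGCCGC on both strands, and hits of different words could overlap. A window was found for 39 of the 47 genes. The first 4 windows printed here belong to the genes that rose under MS023, and the fifth, that of Tyms, belongs to a gene that fell in shPrmt1 cells and under MS023. They are printed 5′ to 3′ on the strand of the gene, with E2F letters in capitals. Cdc6 is at chr11:98907901-98908200 (plus strand), Cdt1 at chr8:122567765-122568064 (plus strand), Mcm3 at chr1:20820263-20820562 (minus strand), Mcm6 at chr1:128359656-128359955 (minus strand) and Tyms at chr5:30073576-30073875 (minus strand).
Cdc6: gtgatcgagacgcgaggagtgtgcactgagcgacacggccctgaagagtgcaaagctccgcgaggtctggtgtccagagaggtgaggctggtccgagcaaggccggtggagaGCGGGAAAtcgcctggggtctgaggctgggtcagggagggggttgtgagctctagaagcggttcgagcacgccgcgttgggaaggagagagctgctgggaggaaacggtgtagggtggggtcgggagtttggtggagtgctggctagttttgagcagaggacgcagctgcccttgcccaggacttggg
Cdt1: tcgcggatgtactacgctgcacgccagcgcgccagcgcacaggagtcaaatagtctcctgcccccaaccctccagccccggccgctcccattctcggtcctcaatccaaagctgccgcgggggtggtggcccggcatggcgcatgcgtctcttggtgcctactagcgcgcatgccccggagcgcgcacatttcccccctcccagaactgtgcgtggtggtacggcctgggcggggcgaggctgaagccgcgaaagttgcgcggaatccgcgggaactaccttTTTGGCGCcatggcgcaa
Mcm3: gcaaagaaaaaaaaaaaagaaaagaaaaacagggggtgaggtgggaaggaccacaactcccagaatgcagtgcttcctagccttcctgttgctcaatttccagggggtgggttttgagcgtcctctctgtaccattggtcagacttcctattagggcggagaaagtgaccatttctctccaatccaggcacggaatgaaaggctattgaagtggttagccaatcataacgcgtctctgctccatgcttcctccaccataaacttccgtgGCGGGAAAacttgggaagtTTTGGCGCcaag
Mcm6: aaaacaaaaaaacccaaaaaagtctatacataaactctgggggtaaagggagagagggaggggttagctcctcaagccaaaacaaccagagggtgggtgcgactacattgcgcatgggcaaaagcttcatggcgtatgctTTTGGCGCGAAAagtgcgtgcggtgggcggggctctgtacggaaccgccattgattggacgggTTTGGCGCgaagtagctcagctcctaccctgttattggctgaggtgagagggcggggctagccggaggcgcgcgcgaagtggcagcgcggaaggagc
Tyms: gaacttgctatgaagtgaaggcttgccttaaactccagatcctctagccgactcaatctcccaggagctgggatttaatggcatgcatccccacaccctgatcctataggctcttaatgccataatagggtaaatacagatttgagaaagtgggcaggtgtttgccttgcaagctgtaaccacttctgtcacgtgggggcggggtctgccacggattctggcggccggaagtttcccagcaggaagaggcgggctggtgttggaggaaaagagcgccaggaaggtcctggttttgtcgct

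Cdc6 and Cdt1 each held 1 hit, Mcm3 held 2 and Mcm6 held 3, of which the first 2 overlap. The Tyms window held none of these letters. In the GENCODE annotation Cdc6 starts at 98907801, so its whole printed window, with the hit, lies downstream of that start. Among the 39 genes with a window, 14 (35.9%) held at least 1 E2F hit, and 704 of all 27025 genes in the table (2.6%) did, or 744 of its 32851 windows (2.26%). The hits were in 8 of 13 origin licensing genes, 6 of 21 fork genes and 0 of 5 nucleotide supply genes. The letters CCAAT on either strand were present in 24 of the 39 genes (61.5%), in 41.1% of all genes and in 37.4% of all windows. The letters CACGTG were present in 8 of the 39 genes (20.5%), in 8.09% of all genes and in 7.15% of all windows. A match of letters is a description of the window and not a measured binding site, and the absence of these letters says nothing of the factor.

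**Figure D1:**
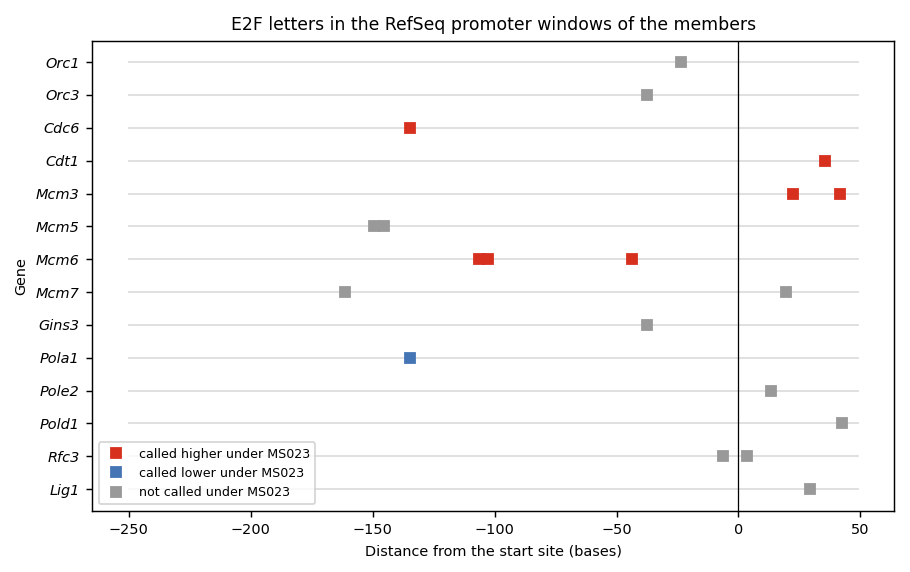
Position of the E2F letters in the promoter windows of the 14 genes that held them. The x axis gives the distance from the RefSeq start site in bases, each grey line is the window of 1 gene, and each square is 1 hit, coloured by the limma call under MS023; all 4 genes called higher under MS023 are among the 14.

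The libraries of the knockdown experiment held 17284091 to 29233738 reads on genes and those of the inhibitor experiment 40119305 to 93697833. The values compared were normalized counts, gene counts divided by DESeq2 size factors, and log2 fold changes are differences of log2(normalized count + 1) estimated by limma. A gene is called when its limma p-value, adjusted over all genes tested, is under 0.05, and calls by edgeR or DESeq2 are named as such. The targeted gene Prmt1 had normalized counts of 5601, 5717 and 5620.1 with shControl and of 669, 761 and 683 with shPrmt1, a log2 fold change of -3.0 (adjusted p = 3.8e-07). Under the inhibitors Prmt1 was not called, with -0.075 for MS023 and -0.012 for GSK3368715. Of 4 epithelial markers, Epcam had no read in any of the 15 libraries, Cdh1 had at most 3 reads and Krt8 had at most 40 reads. Krt18 was present in all libraries, so the epithelial markers were not uniformly present. Of 9 markers of other cell types, Cd3e had no read in any library, and the fibroblast markers Col1a1 and Pdgfrb were present in every library. The other 6 had at most 63 reads. The list of 9 summed to 2102 to 2574 normalized counts in shControl and 3464 to 5309 in shPrmt1 libraries, and to 20320.2 to 20773 in vehicle, 13150.3 to 17329 in MS023 and 19418 to 21375 in GSK3368715 libraries. These sums are carried by Col1a1. The 4 epithelial markers summed to 559 to 609 in shControl and 383 to 465 in shPrmt1 libraries, and to 882 to 1029 in vehicle, 1330.2 to 1442 in MS023 and 1086 to 1202 in GSK3368715 libraries, carried by Krt18 and without overlap between treated and control libraries. The part of both lists in the results for the replication genes was not tested. The library shPrmt1 2 stood furthest from its group, with a mean absolute deviation of 0.21 on the log2 scale against 0.076 to 0.14 for the other 14 libraries.

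The first comparison asked how these genes respond when Prmt1 is depleted. In shPrmt1 cells 5 of the 47 genes fell, namely Tyms, Tk1, Lig1, Rfc2 and Rfc4, and 1 rose, Prim2. Of all 11485 genes tested 14.7% were called, 7.5% higher and 7.17% lower, so the share of the 47 genes called lower (10.6%) was close to that of all genes and the share called higher (2.13%) was below it. The direction was less even than the calls. Of the 47 genes 38 (80.9%) had a log2 fold change under 0, against 50.6% of all genes tested, with a median of -0.078 against -0.0036 over all genes. When all libraries were set to an equal total, 30 of the 47 were under 0, against 45.3% of all genes. The median was then -0.045 against 0.029 over all genes. At this equal total, 8 of the 47 had an unadjusted p under 0.05, beside 31.4% of all genes. In the reported fit 17 of the 47 did, beside 31.2% of all genes. The groups did not overlap in 20 genes that were lower and 2 that were higher in shPrmt1 cells, while 18.9% and 19.2% of all genes tested had groups without overlap in these directions (38% in either). The median difference of the 47 genes from the shControl mean was -0.086, -0.12 and -0.095 for shPrmt1 1, 2 and 3, and -0.024, 0.025 and 0.0057 for shControl 1, 2 and 3. The shControl libraries differed among themselves, with 36, 16 and 21 of the 47 genes under the shControl mean. In shPrmt1 1, 2 and 3 the number under that mean was 38, 32 and 38. Without any 1 shControl library 2 of the 47 genes were called, Tyms and Prim2, where 5.72% to 7.75% of all genes were, and without shPrmt1 2 the count was 9, where 21.7% of all genes were called. In these bulk libraries, fewer cells in S phase and less RNA per cell cannot be told apart.

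The second comparison asked how the genes respond to the inhibitors. Under MS023, 10 of the 47 genes fell (Orc2, Orc5, Pola1, Rfc2, Rfc4, Rpa3, Chaf1b, Tyms, Tk1 and Dut) and 4 rose (Cdc6, Cdt1, Mcm3 and Mcm6). Of all 13014 genes tested 27.9% were called under MS023, 13.7% higher and 14.1% lower, beside 8.51% and 21.3% of the 47 genes. The split depended on the scaling: 6 genes were called higher and 8 lower with every library at the same upper quartile, and 7 higher and 6 lower with every library at the same total. Over all genes tested the shares called higher and lower moved the same way, to 15% and 12.5% and to 16.9% and 11.6%. Without vehicle 2, 7 were called higher and 5 lower, with 12.8% and 13.5% of all genes. The count of 14 was 9 without MS023 2 and 8 without MS023 3, where 18.6% and 19.5% of all genes were called. Under GSK3368715 the calls were 3, all lower (Orc2, Orc5 and Chaf1b), where 9.64% of all genes were called, 5.16% higher and 4.47% lower. Rescaling gave 2 higher and 2 lower calls under GSK3368715 with either target, where 5.41% or 5.74% of all genes were called higher and 3.74% or 3.81% lower. The count was 5 without vehicle 2, where 9.83% of all genes were called, and 1 without vehicle 1, vehicle 3, GSK3368715 1 or GSK3368715 3, where 4.52% to 8.76% were. The fold changes of the 47 genes were evenly split, with 24 under 0 for each inhibitor (49.5% and 49.9% of all genes), and medians of -0.013 for MS023 and -0.0015 for GSK3368715. Groups did not overlap in 13 lower and 8 higher genes under MS023 (22.1% and 22.4% of all genes, 44.5% in either direction) and in 5 lower and 4 higher genes under GSK3368715 (14.1% and 13.7% of all genes, 27.7% in either direction). Both inhibitors were compared with the same 3 vehicle libraries. These differed among themselves in the 47 genes, since 39 of the 47 were under the vehicle mean in vehicle 3 and 9 of the 47 in vehicle 2.

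**Figure D2:**
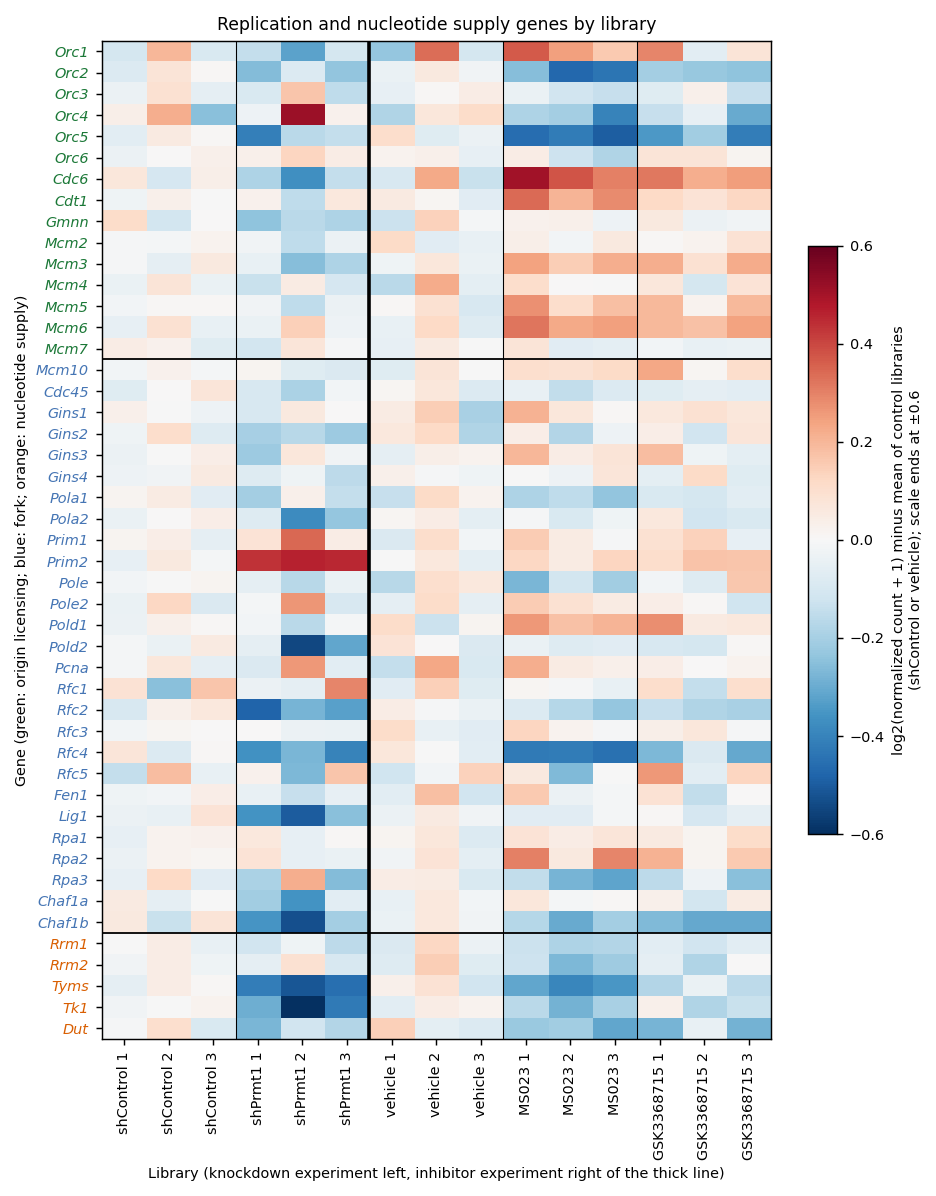
Difference of each gene in each library from the mean of its control libraries (shControl or vehicle), on the log2(normalized count + 1) scale, with the colour scale ending at ±0.6. Rows are the 47 genes by role and columns the 15 libraries; the 5 nucleotide supply genes are lower in the shPrmt1 and MS023 libraries, with Rrm2 in shPrmt1 2 as the exception, and Orc5, Orc2 and Rfc4 are lower in all MS023 libraries.

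By role, the origin licensing genes showed no call in shPrmt1 cells by limma, edgeR or DESeq2. At an unadjusted p under 0.05 these tools gave 5, 4 and 3 of the 15, beside 31.2%, 31.4% and 30% of all genes. The same 15 genes showed 4 higher (26.7%) and 2 lower (13.3%) calls under MS023 and 2 lower calls (13.3%) under GSK3368715. The fork genes showed 1 higher (3.7%) and 3 lower (11.1%) calls in shPrmt1 cells. Under MS023 they showed 5 lower calls (18.5%), and under GSK3368715 1 lower call (3.7%). Of all genes tested limma called 7.5% higher and 7.17% lower in shPrmt1 cells. It called 13.7% and 14.1% under MS023, and 5.16% and 4.47% under GSK3368715. The nucleotide supply genes showed 2 lower calls (40%) in shPrmt1 cells, 3 (60%) under MS023 and none under GSK3368715 by any of the 3 tools. Under GSK3368715, 1 of the 5 had an unadjusted p under 0.05, beside 25.6% to 26.1% of all genes over the 3 tools. In these 3 comparisons DESeq2 also made every limma call, and it added Chaf1b, lower, in shPrmt1 cells. Under MS023 it added 6 genes, with Mcm5, Pold1 and Rpa2 higher and Orc4, Rrm1 and Rrm2 lower, for 20 in all. Under GSK3368715 it added 4, with Mcm3 and Mcm6 higher and Rfc2 and Rfc4 lower, for 7 in all. Over all genes tested DESeq2 called 18.7% in shPrmt1 cells, 30.9% under MS023 and 13.9% under GSK3368715. By edgeR no gene was added, and 1 limma call was lost under each inhibitor. By limma no call was made in any of these 3 comparisons for 31 of the 47 genes, and 63.2% of the 11471 genes tested in all 3 had none either.

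**Figure D3:**
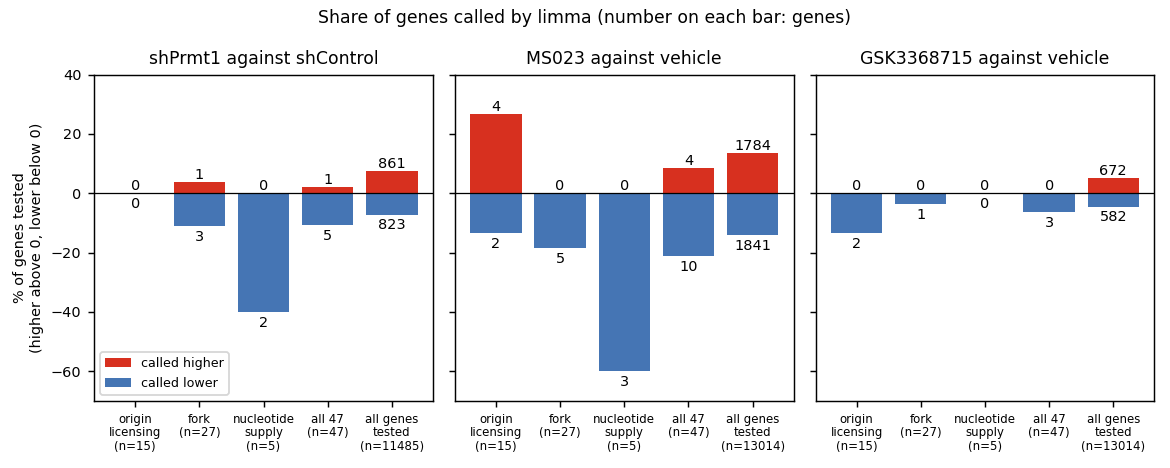
Percentage of genes called higher (above 0) and lower (below 0) by limma for the 3 roles, all 47 genes and all genes tested, in the 3 comparisons; the number at each bar counts genes. The nucleotide supply bars rest on 5 genes, and no nucleotide supply gene was called higher.

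Among the origin licensing genes, Cdc6, Cdt1, Mcm3 and Mcm6 rose under MS023 while Orc2 and Orc5 fell. Cdc6, the ATPase that joins ORC at the origin (ENSMUSG00000017499, GRCm38 chromosome 11, 98907801 to 98923940), had 1383, 1729 and 1346 normalized counts with vehicle and 2091, 1919.5 and 1823 with MS023. All MS023 libraries were above all vehicle libraries, though vehicle 2 came near them. Its log2 fold change was 0.39 (standard error 0.095, adjusted p = 0.0111). With GSK3368715 the levels of Cdc6 were 1838, 1718 and 1758, of which 1 was below vehicle 2, and the log2 fold change was 0.26 (adjusted p = 0.108). In the knockdown, Cdc6 had 867, 773 and 848 with shControl and 729, 642 and 749 with shPrmt1, without overlap. The log2 fold change of -0.23 was not called (adjusted p = 0.116).

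Cdt1, which brings the MCM complex to ORC and CDC6 (ENSMUSG00000006585, chromosome 8, 122568015 to 122573554), had 4263, 4146 and 3919 with vehicle and 5195, 4729 and 4996 with MS023. The groups did not overlap, and Cdt1 rose by 0.28 on the log2 scale (standard error 0.054, adjusted p = 0.00419). With GSK3368715 it had 4455, 4341 and 4470.4, above every vehicle library, with a log2 fold change of 0.11 that was not called (adjusted p = 0.247). In shPrmt1 cells the levels overlapped with shControl, and the log2 fold change was -0.022 (95% interval -0.19 to 0.15). Gmnn, which encodes the CDT1 inhibitor geminin, was not called in any comparison, with -0.20 in shPrmt1 cells, 0.0075 under MS023 and 0.0003 under GSK3368715.

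Of the 6 genes of the MCM2-7 helicase, 5 had a log2 fold change above 0 under each inhibitor and 5 had one under 0 in shPrmt1 cells. With every library at the same total, 6 were above 0 under MS023 and 4 were under 0 in shPrmt1 cells. Mcm6 (ENSMUSG00000026355, chromosome 1, 128331590 to 128359664) had 13017, 14577 and 12733 normalized counts with vehicle and 16766, 15687 and 15925 with MS023. It rose by 0.26 (standard error 0.059, adjusted p = 0.0075), without overlap. With GSK3368715 it had 15377, 15168 and 15847, also above every vehicle library, and the log2 fold change of 0.20 was just outside the threshold (adjusted p = 0.0527). Mcm3 (ENSMUSG00000041859, chromosome 1, 20802968 to 20820312) had 12046, 12839 and 11914 with vehicle and 14483, 13577 and 14265 with MS023, a rise of 0.20 (standard error 0.055, adjusted p = 0.0199). With GSK3368715 its levels of 14274, 13078 and 14326 were again above those of vehicle, with 0.18 (adjusted p = 0.0661). The Mcm3 call under MS023 was lost without vehicle 3, MS023 1 or MS023 3, at an adjusted p of up to 0.0726. The other helicase genes were not called by limma, and under MS023 they ran from -0.016 for Mcm7 to 0.19 for Mcm5 (adjusted p = 0.0704, and 0.0492 by DESeq2). Under GSK3368715 DESeq2 called Mcm3 and Mcm6 higher, with adjusted p of 0.0262 and 0.018.

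All 4 of the genes that rose under MS023 by limma hold E2F letters in their windows, as printed above. Of the 9 genes with a window that fell under MS023 by limma only Pola1 does. Among the genes that DESeq2 added as higher, Mcm5 and Pold1 hold E2F letters and Rpa2 does not. Of those it added as lower, Orc4, Rrm1 and Rrm2, none does. Of the 4 genes with a window that fell in shPrmt1 cells by limma, only Lig1 does, and Prim2, which rose there, has no window. All 4 genes that rose under MS023 by limma are origin licensing genes, and 8 of the 13 genes of that role with a window hold E2F letters. These counts were made after the values were seen and carry no test. Of the E2F genes in the lists (E2f1, E2f2, E2f3, E2f7 and E2f8), E2f1, which encodes an activating factor, fell by 0.73 in shPrmt1 cells (adjusted p = 0.00939) and by 0.32 under MS023 (adjusted p = 0.00826) and was at -0.25 under GSK3368715 (adjusted p = 0.0544). E2f2, also an activating factor, fell by 0.46 in shPrmt1 cells (adjusted p = 0.0142) and was not called under either inhibitor, at -0.058 and -0.13. E2f3, E2f7 and E2f8 were not called against controls in any comparison, with log2 fold changes from -0.18 to 0.087. Of the 9 genes with E2F letters that were not called under MS023, 6 had a log2 fold change above 0 (Mcm5, Gins3, Pold1, Orc1, Pole2 and Rfc3, the first 3 without overlap) and 3 had one under 0, at -0.098 for Orc3, -0.05 for Lig1 and -0.016 for Mcm7.

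Of the 6 ORC genes, 5 were under 0 with MS023, 4 with GSK3368715 and 4 in shPrmt1 cells, the last being 3 with every library at the same total. Orc5 (ENSMUSG00000029012, chromosome 5, 22486485 to 22550429) had 1827, 1613 and 1658 normalized counts with vehicle, 1238, 1269.8 and 1206 with MS023 and 1338, 1468 and 1273 with GSK3368715. Every library with an inhibitor was below every vehicle library. Orc5 fell by 0.46 under MS023 (95% interval -0.62 to -0.29, adjusted p = 0.00144) and by 0.32 under GSK3368715 (95% interval -0.48 to -0.16, adjusted p = 0.0216). Orc2 (ENSMUSG00000026037, chromosome 1, 58462771 to 58505109) had 7771, 8321 and 7864 with vehicle, 6688, 5751 and 5892 with MS023 and 6927, 6812 and 6759 with GSK3368715, again without overlap. The fall of Orc2 was 0.39 under MS023 (standard error 0.061, adjusted p = 0.0013) and 0.22 under GSK3368715 (standard error 0.061, adjusted p = 0.0448). In shPrmt1 cells the levels were 383, 456 and 461 for Orc5 against 489, 529 and 513 with shControl. For Orc2 they were 3148, 3565 and 3205 against 3566, 3981 and 3790.2. The shPrmt1 libraries lay just under the shControl libraries for both genes, and neither was called, with -0.24 (adjusted p = 0.137) and -0.19 (adjusted p = 0.11). Orc1, an ATPase subunit, was the ORC gene above 0 under MS023, with 0.26 (95% interval -0.06 to 0.58), and its levels in the vehicle libraries alone ran from 475 to 706. Orc4 was at -0.26 under MS023 (adjusted p = 0.0568, and 0.0273 by DESeq2).

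Both GSK3368715 calls among the ORC genes were near the threshold. The Orc2 call was lost under 15 of 20 alternatives (adjusted p up to 0.114), among them edgeR and the omission of any vehicle or GSK3368715 library, MS023 2 or MS023 3, and the Orc5 call was lost under 5 (adjusted p up to 0.0741), namely the fit of the compared groups alone and the omission of vehicle 1, vehicle 3, GSK3368715 1 or GSK3368715 3. Exons of Orc2 share 1150 bases (29.8%) with Nif3l1 on the opposite strand, and Nif3l1 was not called in these comparisons; whether the counting used the strand is not given in the sources used here.

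**Figure D4:**
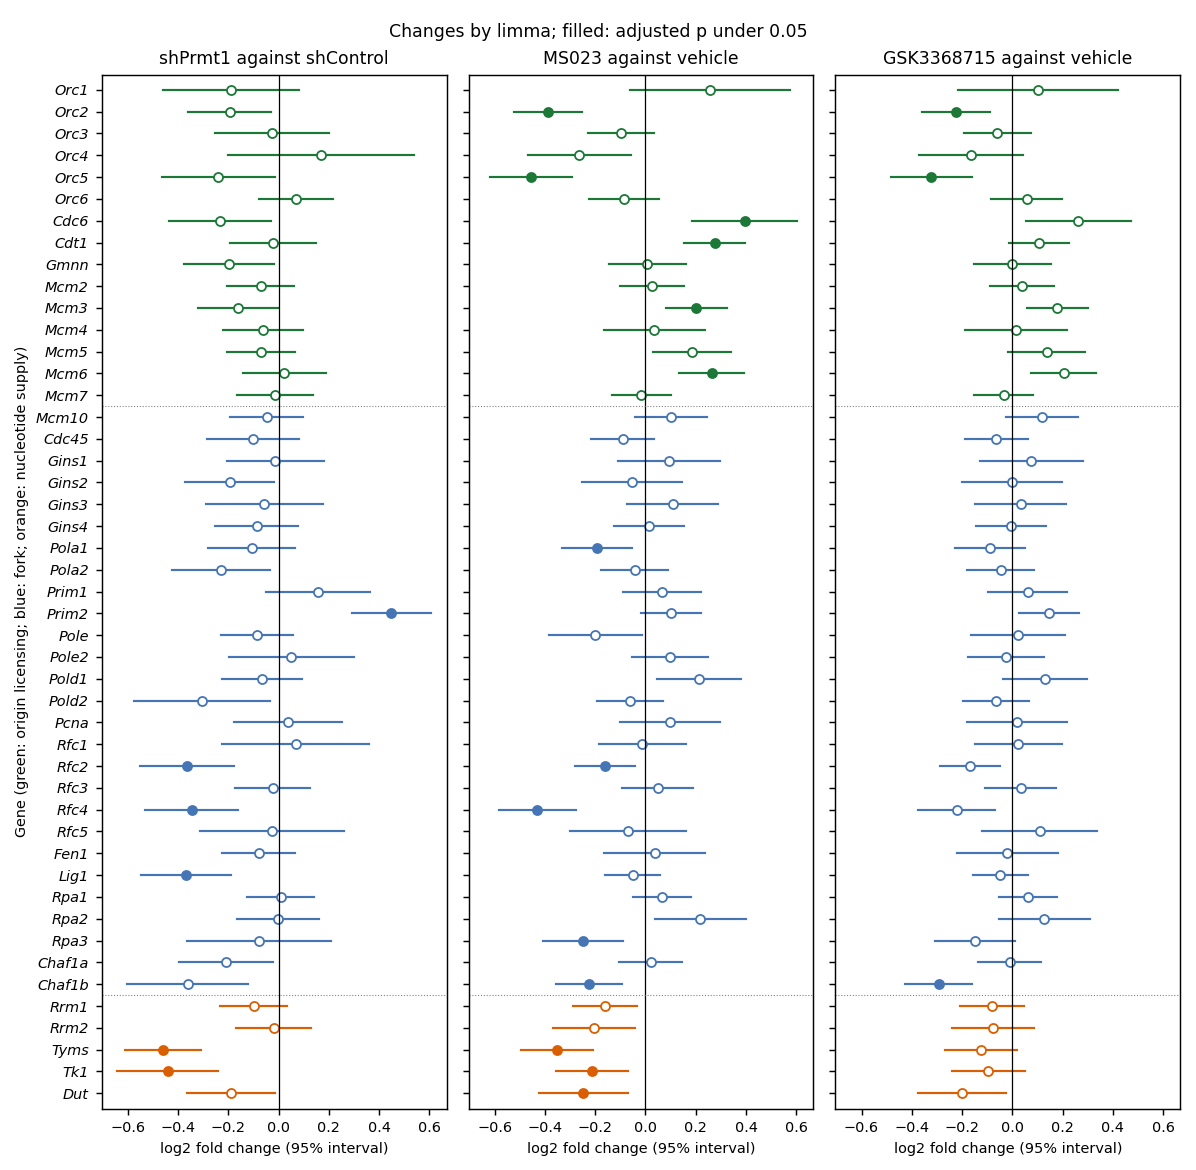
Log2 fold change of the 47 genes with its 95% interval by limma, in shPrmt1 cells, under MS023 and under GSK3368715; filled points passed an adjusted p of 0.05. In shPrmt1 cells 38 of 47 points lie under 0, while under each inhibitor 24 do.

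Among the fork genes, the clamp loader subunits Rfc4 and Rfc2 fell in shPrmt1 cells and under MS023. Rfc4 (ENSMUSG00000022881, chromosome 16, 23113943 to 23127737) had 702, 632 and 672 normalized counts with shControl and 519, 553 and 506 with shPrmt1, a fall of 0.35 (standard error 0.081, adjusted p = 0.025). In the inhibitor experiment Rfc4 had 2106, 2008 and 1926 with vehicle, 1501, 1504 and 1473 with MS023 and 1671, 1894 and 1624 with GSK3368715. The MS023 libraries differed little among themselves and all lay below vehicle, a fall of 0.43 (standard error 0.069, adjusted p = 0.00142). With GSK3368715 the levels lay between, at a log2 fold change of -0.22 that was not called (adjusted p = 0.0702). Rfc2 (ENSMUSG00000023104, chromosome 5, 134581366 to 134601805) had 1204, 1313 and 1346 with shControl and 920.2, 1059 and 1027 with shPrmt1, a fall of 0.36 (adjusted p = 0.0221). It had 4648, 4489.8 and 4387 with vehicle and 4263, 3999 and 3831 with MS023, a fall of 0.16 (adjusted p = 0.0463). The levels of Rfc2 with GSK3368715 were 4098, 3979.8 and 3944, without overlap with vehicle, at -0.17 (adjusted p = 0.0748). By DESeq2 the falls of Rfc4 and Rfc2 under GSK3368715 passed, with adjusted p of 0.0384 and 0.0408.

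The other subunits of the loader, Rfc1, Rfc3 and Rfc5, were not called in any comparison with controls, with log2 fold changes from -0.07 to 0.11. In the knockdown the Rfc2 and Rfc4 calls were each lost without any 1 shControl library, without shPrmt1 1 and without shPrmt1 3 (adjusted p up to 0.101 and 0.12). Under MS023 the Rfc2 call was lost under 14 of 20 alternatives (adjusted p up to 0.166), among them the omission of any vehicle or GSK3368715 library, MS023 2 or MS023 3, and the Rfc4 call under none.

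The primase and polymerase genes did not move together. Prim2, the large primase subunit (ENSMUSG00000026134, chromosome 1, 33453810 to 33669795), was the single gene of the 47 to rise in shPrmt1 cells. It had 705, 761 and 724 normalized counts with shControl and 987, 1006 and 997 with shPrmt1, with all shPrmt1 libraries well above the shControl libraries. Its log2 fold change was 0.45 (standard error 0.069, adjusted p = 0.00454), and the call was lost under none of 16 alternatives. With MS023 Prim2 had 3025, 2875 and 3043 and with GSK3368715 2988, 3129 and 3119, against 2771, 2899 and 2670.0 with vehicle. The log2 fold changes of 0.10 and 0.15 were not called (adjusted p = 0.189 and 0.112). Its partner Prim1, the catalytic primase subunit, was at 0.16 in shPrmt1 cells (adjusted p = 0.273). Pola1, the catalytic subunit of polymerase alpha (ENSMUSG00000006678, chromosome X, 93304767 to 93632155), had 7659, 9112 and 8548 with vehicle and 7413, 7564 and 7138 with MS023, with vehicle 1 just above the MS023 libraries. It fell by 0.19 (standard error 0.063, adjusted p = 0.0433). The Pola1 call was lost under 13 of 20 alternatives (adjusted p up to 0.137), among them the omission of vehicle 2, vehicle 3, any MS023 library or any GSK3368715 library.

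Lig1, the ligase that joins Okazaki fragments (ENSMUSG00000056394, chromosome 7, 13277283 to 13311433), fell in shPrmt1 cells. It had 2926, 2914 and 3174 with shControl and 2339, 2125 and 2526 with shPrmt1, without overlap, a fall of 0.37 (standard error 0.079, adjusted p = 0.0174). Under the inhibitors the levels of Lig1 overlapped with vehicle, with -0.05 (95% interval -0.16 to 0.059) for MS023 and -0.048 (95% interval -0.16 to 0.061) for GSK3368715. Pcna and Fen1, which act with LIG1 on Okazaki fragments, were not called in any comparison by limma, with 0.037 for Pcna, the clamp, in shPrmt1 cells, and -0.079 for Fen1, the flap nuclease. The Lig1 call was lost without any 1 shControl library (adjusted p up to 0.0869).

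Chaf1b, a subunit of the CAF-1 complex that deposits histones behind the fork (ENSMUSG00000022945, chromosome 16, 93883901 to 93906115), was the fork gene called under GSK3368715. It had 1831, 1964 and 1856 normalized counts with vehicle, 1674, 1528 and 1634 with MS023 and 1568, 1520.0 and 1521 with GSK3368715. No inhibitor library overlapped with vehicle, and Chaf1b fell by 0.29 under GSK3368715 (standard error 0.06, adjusted p = 0.0138) and by 0.22 under MS023 (standard error 0.06, adjusted p = 0.0179). In shPrmt1 cells it had 586, 520.0 and 651 against 781, 683 and 791, with the largest fold change of any uncalled gene of the 47 there, -0.36 (adjusted p = 0.0528, and 0.0244 by DESeq2). The MS023 call was lost without vehicle 2 or MS023 2 (adjusted p up to 0.0805), and the GSK3368715 call under none of 20 alternatives. Rpa3, the smallest RPA subunit (ENSMUSG00000012483, chromosome 6, 8255936 to 8259173), had 4127, 4139.9 and 3759 with vehicle and 3610.1, 3299 and 3212 with MS023, a fall of 0.25 (adjusted p = 0.0255). Rpa1 and Rpa2, which encode its partners, were not called by limma, at 0.066 and 0.22 under MS023, and DESeq2 called Rpa2 higher (adjusted p = 0.044). The Rpa3 call was lost under 5 of 20 alternatives (adjusted p up to 0.0958), among them the omission of vehicle 1, vehicle 2, MS023 2 or MS023 3.

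The genes of CDC45 and GINS, which complete the helicase, were not called in any comparison by limma, edgeR or DESeq2. All 5 were under 0 in shPrmt1 cells (4 with every library at the same total), from -0.19 for Gins2 to -0.013 for Gins1, and under MS023 they ran from -0.091 for Cdc45 to 0.11 for Gins3. Exons of 18 of the 47 genes share bases with another annotated gene, and for 3 of them the share is over 50%: 67.3% of Gins2 with Gse1, 78.8% of Fen1 with Gm10143 and 52.5% of Chaf1a with Ubxn6, all on the opposite strand. Rfc2 shares 15.1% with Lat2 and Rfc4 12.7% with Eif4a2, also on the opposite strand, and neither neighbour was called. Near-identical sequence elsewhere in the transcripts was found for Mcm7 (97.7% identity to Gm5487 over 72.8% of its transcript) and Pcna (99.2% to Pcna-ps2 over 51.4%). The values of these genes are uncertain where reads could be split. The polymerase epsilon and delta genes were not called by limma. In the comparisons with controls, the lowest value was -0.30 for Pold2 in shPrmt1 cells (adjusted p = 0.12). The highest there was 0.21 for Pold1 under MS023 (adjusted p = 0.0576, and 0.0384 by DESeq2). Mcm10, which supports helicase activation, was at -0.047, 0.10 and 0.12 in shPrmt1 cells, under MS023 and under GSK3368715.

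The 5 nucleotide supply genes had log2 fold changes under 0 in all 3 comparisons (4 of 5 in shPrmt1 cells with every library at the same total), with medians of -0.19 in shPrmt1 cells, -0.21 under MS023 and -0.096 under GSK3368715. Tyms, the thymidylate synthase (ENSMUSG00000025747, chromosome 5, 30058202 to 30073617), had 1414, 1514 and 1473 normalized counts with shControl and 1099.7, 1028 and 1069.7 with shPrmt1, a mean of 72.7% of shControl. The groups were far apart for their spread, and Tyms fell by 0.46 (standard error 0.066, adjusted p = 0.00346). It had 3776, 3921 and 3407 with vehicle and 2974, 2814 and 2904 with MS023, 78.3% of vehicle and a fall of 0.35 (standard error 0.065, adjusted p = 0.003). Both Tyms calls were lost under none of the alternatives, 16 in the knockdown and 20 in the inhibitor experiment. With GSK3368715 its levels of 3271, 3593 and 3316 overlapped with vehicle, with a log2 fold change of -0.12 (adjusted p = 0.259).

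Tk1, the cytosolic thymidine kinase that salvages thymidine (ENSMUSG00000025574, chromosome 11, 117815526 to 117826092), had 1475, 1491 and 1518 with shControl and 1221, 981 and 1113 with shPrmt1. The spread was wider in shPrmt1 than in shControl libraries, without overlap, and Tk1 fell by 0.44 (standard error 0.087, adjusted p = 0.0134). Under MS023 it went from 4302, 4637 and 4556 to 4016, 3698 and 3927, a fall of 0.21 (standard error 0.065, adjusted p = 0.033). With GSK3368715 it had 4589, 3962 and 4094, and the log2 fold change of -0.096 was not called. The Tk1 call in shPrmt1 cells was lost without any 1 shControl library (adjusted p up to 0.0634), and that under MS023 under 8 of 20 alternatives (adjusted p up to 0.125), among them the omission of vehicle 2, vehicle 3 or any MS023 library. Exons of Tk1 share 83 bases with Afmid on the opposite strand, and Afmid changed by -0.74 in shPrmt1 cells (adjusted p = 0.0974), by -0.69 under MS023 (adjusted p = 0.00937) and by -0.43 under GSK3368715 (adjusted p = 0.116).

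Dut, the dUTPase that keeps uracil out of DNA (ENSMUSG00000027203, chromosome 2, 125247190 to 125258608), had 5961, 5197 and 5104 with vehicle and 4641, 4677 and 4363 with MS023. It fell by 0.25 (standard error 0.08, adjusted p = 0.0414), a call that was lost under 8 of 20 alternatives (adjusted p up to 0.133), among them both rescalings and the omission of vehicle 1 or any MS023 library. In shPrmt1 cells Dut was at -0.19 (adjusted p = 0.136). Rrm1, the large subunit of ribonucleotide reductase, had 19989, 23098 and 20704 with vehicle and 19431, 18664 and 18798 with MS023, and Rrm2, the S phase small subunit, had 14454, 16887 and 14462 and 13976, 12619 and 13116. Neither overlapped with vehicle. Neither was called by limma, at -0.16 (adjusted p = 0.0574) and -0.20 (adjusted p = 0.0629), while DESeq2 called both lower (adjusted p = 0.0328 and 0.038), and with them all 5 nucleotide supply genes under MS023. In shPrmt1 cells they were at -0.10 and -0.019.

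**Figure D5:**
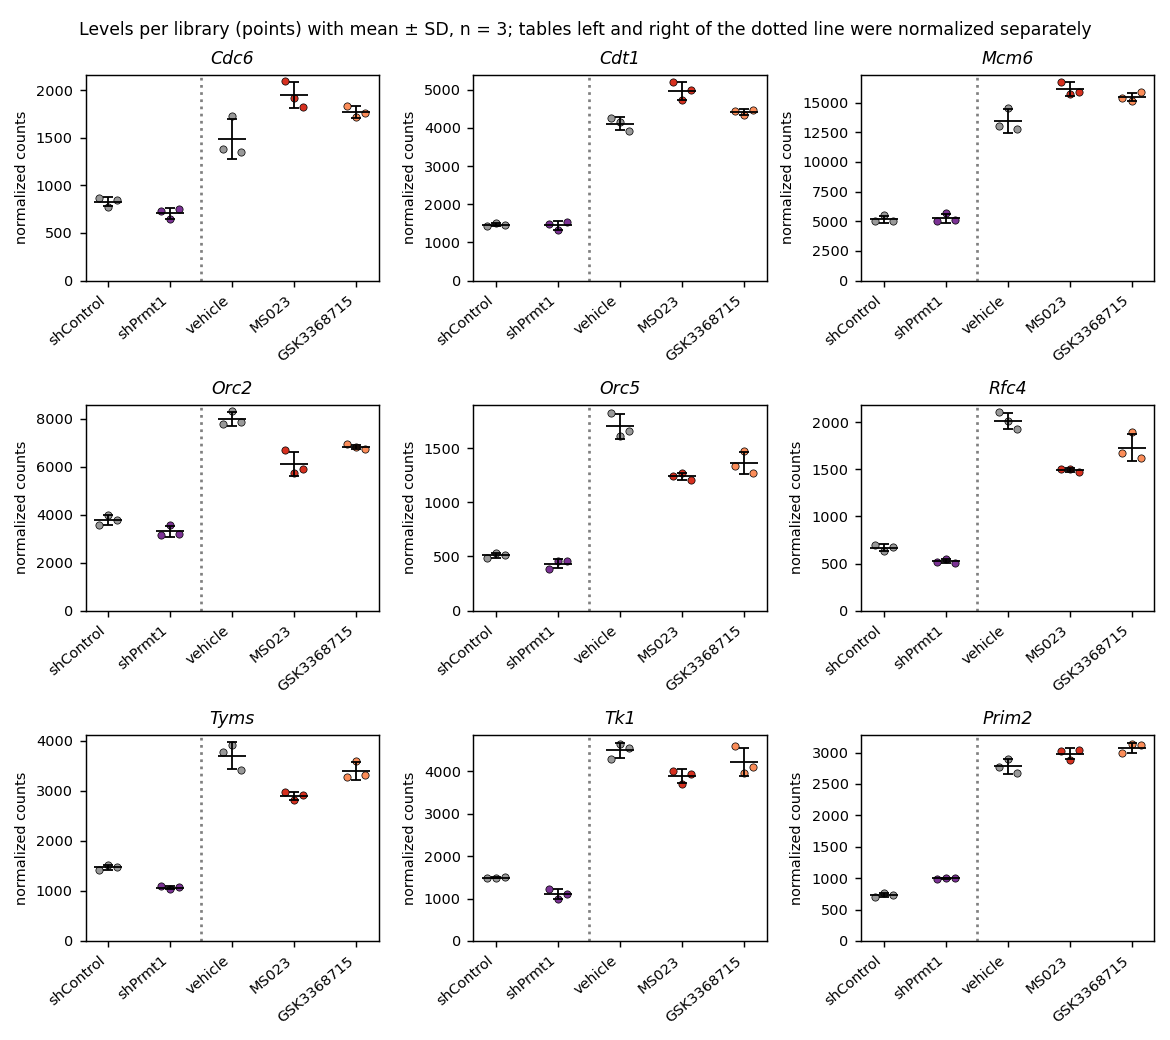
Normalized counts of 9 of the genes in each library (points), with the mean and SD of the 3 libraries of a group (bars). The knockdown and inhibitor experiments, left and right of the dotted line, were normalized separately; Tyms and Tk1 are lower in shPrmt1 than in shControl libraries, and Prim2 is higher.

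Of the 16 genes called in at least 1 comparison, Rfc2, Rfc4, Tyms and Tk1 fell both in shPrmt1 cells and under MS023, which used separate control libraries. Of all 11471 genes tested in every comparison, 3.74% were lower in both. Cdc6, at -0.23 in shPrmt1 cells and 0.39 under MS023, and Mcm5, at -0.07 and 0.19, had every shPrmt1 library below shControl and every MS023 library above vehicle, and the difference between the experiments was not tested.

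The inhibitors were compared with each other at the same dose and time, gene by gene over the 47. No gene was called different by limma, edgeR or DESeq2. Of all genes tested these tools called 0.515%, 0.53% and 2.9%. At an unadjusted p under 0.05, limma gave 6 of the 47 genes, and edgeR and DESeq2 gave 5 each, beside 13.2%, 13.3% and 13.1% of all genes. Groups did not overlap in 7 genes that were higher and 2 that were lower under GSK3368715, with 11.4% and 9.95% of all genes in these directions (21.4% in either). The difference was under 0 for 25 of the 47 genes and for 48.6% of all genes. All 5 nucleotide supply genes were nearer to vehicle under GSK3368715, with differences from MS023 of 0.046 to 0.23. Most genes of the lists described below also had a difference above 0. It was under 0 for 12 of 40 other replication genes and 12 of 38 other nucleotide genes. The same held for 1 of 18 G2 and M phase markers and 4 of 18 G1 and S phase genes. This direction was therefore not particular to the nucleotide supply genes. For Tyms the difference was 0.23 (95% interval 0.083 to 0.37, adjusted p = 0.175), and for Rfc4 it was 0.21 (95% interval 0.056 to 0.36, adjusted p = 0.23). For Cdt1 it was -0.17 (95% interval -0.29 to -0.049, adjusted p = 0.22). Over the 47 genes the 95% intervals ran from -0.47 to 0.41 at the widest, so differences of that size are not shown to be absent. How the compounds differ in structure was not used here.

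Other genes of the pathways were described by lists written with earlier results of these data known. Of 40 other replication genes, 4 fell in shPrmt1 cells (Mcm9, Rbbp4, Asf1b and Pclaf), 6 fell under MS023 (Dbf4, Tipin, Rnaseh1, Top1, Ssrp1 and Pclaf) and 1 rose under GSK3368715 (Timeless), with medians of -0.069, -0.071 and -0.033. The shares called lower of 10% in shPrmt1 cells and 15% under MS023 stood beside 7.17% and 14.1% of all genes tested, and the 2.5% called higher under GSK3368715 beside 5.16%. None of the 40 was called higher by limma in shPrmt1 cells or under MS023, beside 7.5% and 13.7% of all genes, or lower under GSK3368715, beside 4.47%. Pclaf, a PCNA-associated factor, was at -0.42 in shPrmt1 cells (adjusted p = 0.00374) and -0.21 under MS023 (adjusted p = 0.0463). Dbf4, the activating subunit of the CDC7 kinase that fires origins, was at -0.22 under MS023 (adjusted p = 0.0039). Of 38 other nucleotide genes, 4 fell and 1 rose in shPrmt1 cells, 9 fell and 5 rose under MS023, and 2 fell and 1 rose under GSK3368715. The shares called lower were 10.5%, 23.7% and 5.26%, beside 7.17%, 14.1% and 4.47% of all genes, and those called higher were 2.63%, 13.2% and 2.63%, beside 7.5%, 13.7% and 5.16%. Shmt2, the mitochondrial serine hydroxymethyltransferase of folate metabolism, fell in shPrmt1 cells (log2 fold change -0.37, adjusted p = 0.0189) and under MS023 (-0.43, adjusted p = 0.00465). Rrm2b, the p53-inducible small subunit of ribonucleotide reductase, fell by 0.68 under MS023 (adjusted p = 6.4e-04) and by 0.36 under GSK3368715 (adjusted p = 0.0377). Samhd1, which degrades deoxynucleotides, rose by 0.28 under MS023 (adjusted p = 0.00244) and by 0.23 under GSK3368715 (adjusted p = 0.0185).

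Markers of the cell cycle were set beside these results. Of 18 G2 and M phase markers none was called in shPrmt1 cells by limma or edgeR, and 1 was by DESeq2. Of all genes these tools called 14.7%, 14.9% and 18.7%. By each tool 3 of the 18 had an unadjusted p under 0.05, beside 30% to 31.4% of all genes. By limma, 5 of the 18 fell under MS023 (27.8%, beside 14.1% of all genes) and 2 under GSK3368715 (11.1%, beside 4.47%). Their summed level was 73930.2 to 81009 normalized counts in shPrmt1 and 75798 to 76925 in shControl libraries. It was 185469 to 196311 in MS023, 200496 to 206211 in GSK3368715 and 186503 to 218440 in vehicle libraries, so in this sum the vehicle libraries overlapped with those of both inhibitors. Gene by gene, groups did not overlap in 9 lower and 2 higher of the 18 under MS023, beside 22.1% and 22.4% of all genes. Under GSK3368715 there were 3 lower and 1 higher, beside 14.1% and 13.7%. In shPrmt1 cells there were 2 lower and 2 higher, beside 18.9% and 19.2%. Of 18 G1 and S phase cyclin and E2F genes tested, 1 rose (5.56%, beside 7.5% of all genes) and 2 fell (11.1%, beside 7.17%) in shPrmt1 cells, and 3 fell under MS023 (16.7%, beside 14.1%). None was called under GSK3368715 by limma or edgeR, and DESeq2 called 1, beside 9.64%, 9.54% and 13.9% of all genes. At an unadjusted p under 0.05 there were 3, beside 26.1% of all genes by limma and 25.9% by edgeR. The part of a change in cell cycle phase in the levels of the replication genes was not tested.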

How the data were processed

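RNA-sequencing libraries of CT26 cells (total RNA, Kapa mRNA library kit, paired-end reads) were quantified by the authors with Salmon 1.4.0 on mm10, and the authors deposited these as a normalized signal, the count of each gene over the DESeq2 size factor of the library, in separate tables for the knockdown (6 libraries) and inhibitor (9 libraries) experiments. All values (100%) were whole multiples of a constant of the library, which gave 17284091 to 93697833 reads on genes per library. Deposited comparison tables with fold changes and p-values were not used.

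A gene was tested where 3 or more libraries of the fit had 10 or more normalized counts, on log2(normalized count + 1) with limma 3.58.1 (lmFit, eBayes with a trend, R 4.3.3), two-sided, with Benjamini-Hochberg adjustment over all genes tested and a threshold of 0.05. On this scale changes of genes with few reads come out too small. The knockdown was fitted as 3 libraries against 3, and the 9 inhibitor libraries in a single fit with contrasts. edgeR 4.0.16 and DESeq2 1.42.0 on the recovered reads were alternatives, beside other pseudocounts, filters and scalings, no trend, only the groups compared, the replicate number as a block, and each library left out. Scripts were tested on simulated data. No molecular identifiers were used, so reads copied from a single molecule could not be told apart. The standard errors, intervals and p-values by limma rest on the spread between libraries.

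The 47 genes and the other lists were chosen with earlier results of these data known. Named with values are genes called in at least 1 comparison and members of complexes described as a whole, and Pcna, Fen1, Mcm10, Gmnn, the E2F genes, Shmt2, Rrm2b, Samhd1, Pclaf and Dbf4 were named after their values were seen. Gene coordinates are from GENCODE on GRCm38 (the same assembly as mm10), and promoter windows from RefSeq on GRCm38.p6. Exon overlaps were read from GENCODE, and copies were searched with blastn 2.17.0 with a minimum identity of 95% and a minimum coverage of 30% of the transcript.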

Additional observations from a re-analysis of the deposited data

Results flagged for a closer look

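Cdc6 was at -0.23 in shPrmt1 cells and 0.39 under MS023, and every shPrmt1 library was below the shControl mean while every MS023 library was above the vehicle mean. Mcm5 was at -0.070 in shPrmt1 cells and 0.19 under MS023, in the same way. The opposite directions drew attention to both genes, and the difference between the experiments was not tested.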

How the results depend on the processing

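The number of the 47 genes called was within 1.5 times the reported one under the other settings, except as follows. Without the trend in eBayes 9 genes were called under MS023 (25% of all genes), and under GSK3368715 DESeq2 called 7 (13.9% of all genes) and the fit of the compared groups alone called 1 (4.68%). With 1 library left out, the number ran from 2 to 9 in shPrmt1 cells, from 8 to 16 under MS023, from 1 to 5 under GSK3368715 and stayed at 0 between the inhibitors. Of the calls of single genes, no direction was reversed. In all settings with every library kept, 6 of 6 calls held in shPrmt1 cells, 9 of 14 under MS023 and 1 of 3 under GSK3368715. With each library left out in turn, 2 of 6, 7 of 14 and 1 of 3 held. With the replicate number as a block, 9 genes were called in shPrmt1 cells, 13 under MS023, 2 under GSK3368715 and 0 between the inhibitors. Of all genes 23.3%, 24.7%, 6.61% and 0.0307% were called with the block, and 14.7%, 27.9%, 9.64% and 0.515% without it. Deviations of same-numbered libraries correlated at 0.061, 0.116 and 0.081 in the knockdown and at -0.10 to 0.11 in the inhibitor experiment. With 3 libraries in a group, these values cannot show whether the numbers pair the libraries.

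The median of the 47 genes in shPrmt1 cells was -0.045 at the same total in each library and ran from -0.11 to -0.066 with 1 library left out, the former without shPrmt1 2. Medians near 0 changed sign. At the same upper quartile or total in each library the median of the 47 genes was 0.0060 or 0.022 under MS023, and 0.0097 or 0.013 under GSK3368715. With 1 library left out it ran from -0.035 to 0.011 under MS023, from -0.040 to 0.031 under GSK3368715 and from -0.013 to 0.026 between the inhibitors. The 95% intervals had a median half-width of 0.18 in the knockdown and 0.14 in the inhibitor experiment, which limits what can be called. The causes of these shifts were not tested.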
